A study of Mus musculus with 12 samples.

Results

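The 50 mitosis and spindle genes described here are genes of cell division, taken by name from the count table of a mouse transplantation study. They were picked by name for what their products do, by a rule that used no measured value but with earlier results of these data known, and all 50 of them were among the 25078 genes of the table. By function they fell into 9 groups, namely cyclins and CDK1 activation (7 genes), mitotic kinases (4), the spindle checkpoint (4), chromosomal passengers (3), the centromere and kinetochore (6), kinesins (8), condensin and chromosome structure (7), spindle assembly and cytokinesis (6) and anaphase and ubiquitin (5).

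In the study, lethally irradiated BALB/c mice received T cell-depleted bone marrow from wild-type (WT) C57BL/6 mice together with CD90.2+ T cells from 1 of 3 kinds of C57BL/6 donor. The donors were WT, STAT3-/- (floxed Stat3 with a CD4-Cre transgene, so that the deletion followed the Cd4 promoter and was limited to cells in which that promoter had been active) or STAT3-/-PD-1-/- (the same floxed Stat3 and CD4-Cre on mice that also lacked PD-1 in every cell from the germline). On day 6 after hematopoietic cell transplantation, donor CD4+ and CD8+ T cells (H-2Kb+ TCRβ+) were sorted from the liver, and RNA-Seq was run on 2 libraries of each genotype and subset, 12 in all. Each library held lymphocytes combined from 3 recipients, the CD4+ and CD8+ cells came from the same livers, and the same WT marrow was given to all recipients. The genotype comparisons ask how loss of STAT3, alone or with loss of PD-1, changed donor T cells in a tissue that graft-versus-host disease attacks.

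Each library held 21676125 to 24551477 counted reads, and no member had fewer than 408 counts in any library. With 2 libraries a group, the smallest 2-sided p an exact permutation test could give was 0.333, so all tests below are those of edgeR's quasi-likelihood fit across all tested genes, with Benjamini-Hochberg adjustment over all of them and a threshold of 0.05 on the adjusted p. Levels of a gene are given as CPM (counts scaled to 1 common library total) after TMM scaling of the 12 libraries, and levels are set beside those of another gene only per length of exon (RPKM, which divides the CPM by the exon length in kilobases). Fold changes are on the log2 scale, with their standard error (SE). The p-values measure the spread between pools of recipients.

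The labels were first set against marker genes. In CD4+ cells Stat3 was at 368 and 467 CPM in the WT, 139.8 and 164 CPM in the STAT3-/- and 157 and 219 CPM in the STAT3-/-PD-1-/- libraries. In CD8+ cells it was at 397 and 384 CPM in the WT, 149 and 135 CPM in the STAT3-/- and 154 and 235 CPM in the STAT3-/-PD-1-/- libraries. Cells of STAT3-/-PD-1-/- donors had less Stat3 than WT, which fell by 1.13 ± 0.22 among CD4+ (adjusted p = 0.018) and fell by 1.00 ± 0.20 among CD8+ cells (adjusted p = 0.0177), whereas the differences of -1.46 ± 0.22 and -1.46 ± 0.20 in STAT3-/- cells had adjusted p-values of 0.055 and 0.108. Reads of Stat3 were thus left in every STAT3-/- library, and the count per gene does not show whether they came from the deleted exons. Pdcd1, which encodes PD-1, was at 247 and 235 CPM in the WT, 261 and 323 CPM in the STAT3-/- and 55.1 and 26 CPM in the STAT3-/-PD-1-/- libraries of CD4+ cells. In CD8+ cells it was at 376 and 307 CPM in the WT, 424 and 454 CPM in the STAT3-/- and 93.5 and 65.5 CPM in the STAT3-/-PD-1-/- libraries. It fell in STAT3-/-PD-1-/- cells of both subsets (adjusted p = 0.00566 and 0.00243).

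The sorted subsets carried their own coreceptors. Cd4 was at 1241 to 1887 CPM in the CD4+ libraries and at 2.73 CPM or less in the CD8+ libraries, and Cd8a was at 589 to 1339 CPM in the CD8+ libraries and at 5.64 CPM or less in the CD4+ libraries. Markers of other cells of the liver were near 0: 10 hepatocyte markers summed to 1.51 to 5.35 CPM (most abundant Trf, with Alb at 0.519 CPM or less), 7 erythroid markers to 0.736 CPM or less (with Hbb-bs, Hba-a1 and Hba-a2 at 0 in all 12 libraries), and 5 B cell markers to 14.7 CPM or less, nearly all of it Cd79b, with Ms4a1 at 0 throughout. Hba-a1 and Hba-a2 are listed over nearly the same stretch of 1 strand, where reads may be given to neither gene. Their 0 does not by itself show a lack of erythroid RNA. The 10 macrophage and granulocyte markers summed to 7.25 to 37 CPM, mostly Cd68. The 5 endothelial markers summed to 110 to 198 CPM, nearly all of it Pecam1, with Cdh5 at 0.899 CPM or less. The 7 T cell markers (Cd3d, Cd3e, Cd3g, Cd2, Cd5, Lck and Thy1) summed to 4213 to 5616 CPM, lower in both STAT3-/-PD-1-/- libraries (4752 and 4597 CPM in CD4+ and 4213 and 4263 CPM in CD8+ cells) than in both WT libraries of the subset (5567 and 5274 CPM, 5616 and 5554 CPM), the 3 CD4 T cell markers (Cd4, Zbtb7b and Cd40lg) summed to 1570 and 1394 CPM in STAT3-/-PD-1-/- CD4+ libraries against 2201 and 2252 CPM in WT, and the 3 CD8 T cell markers (Cd8a, Cd8b1 and Runx3) summed to 1403 and 1436 CPM in STAT3-/-PD-1-/- CD8+ libraries against 2465 and 2628 CPM in WT; what part this had in the results below was not tested.

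A cell that divides makes cyclin B and CDK1 to enter mitosis, condenses its chromosomes, and attaches them through kinetochores to a spindle that kinesins build and move. A checkpoint holds the cell until every chromosome is attached, after which the anaphase-promoting complex marks securin and the cyclins for destruction and the sister chromatids part. Most of these genes are transcribed late in the cell cycle, under the control of the DREAM complex in resting cells and of B-MYB and FOXM1 in dividing ones, and T cells that meet antigen are among the fastest dividing cells of the adult. A higher share of cells in G2 and mitosis and more RNA per such cell cannot be told apart in sorted bulk samples.

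Promoters of these genes are known for a pair of short elements, the cell cycle homology region (CHR, TTTGAA or its variant TTCGAA), to which DREAM and B-MYB complexes bind, and CCAAT boxes, to which NF-Y binds. RefSeq promoter windows (build GRCm38.p6, 250 bases before to 50 bases after the start) were at hand for 42 of the 50 members, and not for Ccna2, Kif20a, Foxm1, Cdc25c, Tpx2, Aurkb, Incenp and Smc4. Searched on both strands, TTTGAA or TTCGAA stood in at least 1 window of 33 of the 42 members (78.6%), against 19.2% of all 32851 windows of the same length, and CCAAT in 32 (76.2%, against 37.4%). Both stood in the windows of 29 members (69%, against 7.52%). The 9 members with a window and neither form of the CHR were Ccnb1, Nek2, Mad2l1, Birc5, Cenpe, Nuf2, Ncaph, Nusap1 and Pttg1, which says only that these 6 letters were not in the window. The 4 members with a CHR and the most CCAAT boxes are printed to show how the elements lie together. They are Top2a (chr11:99024165-99024439, minus strand), Ube2c (chr2:164769679-164769953, plus strand), Hmmr (chr11:40733413-40733687, minus strand) and Cdca8 (chr4:124936893-124937167, minus strand), each from 250 bases before to 25 bases after the start, 5′ to 3′ on the gene's own strand, with both elements in capitals (ATTGG and TTCAAA are CCAAT and TTTGAA read on the other strand).
Top2a: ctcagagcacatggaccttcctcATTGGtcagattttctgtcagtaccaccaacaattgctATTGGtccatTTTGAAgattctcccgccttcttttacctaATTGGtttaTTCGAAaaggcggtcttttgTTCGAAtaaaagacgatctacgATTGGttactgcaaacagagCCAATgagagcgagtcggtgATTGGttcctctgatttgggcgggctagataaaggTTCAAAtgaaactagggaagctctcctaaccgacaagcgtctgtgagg
Ube2c: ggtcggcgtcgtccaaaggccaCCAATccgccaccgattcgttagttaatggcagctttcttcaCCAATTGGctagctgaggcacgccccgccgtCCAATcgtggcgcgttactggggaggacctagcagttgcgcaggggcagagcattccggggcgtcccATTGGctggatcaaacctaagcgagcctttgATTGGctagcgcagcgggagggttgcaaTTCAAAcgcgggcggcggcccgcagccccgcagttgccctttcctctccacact
Hmmr: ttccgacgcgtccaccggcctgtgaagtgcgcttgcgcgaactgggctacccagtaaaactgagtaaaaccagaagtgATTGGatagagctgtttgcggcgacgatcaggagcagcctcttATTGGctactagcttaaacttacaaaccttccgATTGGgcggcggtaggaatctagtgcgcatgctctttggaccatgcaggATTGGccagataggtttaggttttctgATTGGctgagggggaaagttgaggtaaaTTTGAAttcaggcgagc
Cdca8: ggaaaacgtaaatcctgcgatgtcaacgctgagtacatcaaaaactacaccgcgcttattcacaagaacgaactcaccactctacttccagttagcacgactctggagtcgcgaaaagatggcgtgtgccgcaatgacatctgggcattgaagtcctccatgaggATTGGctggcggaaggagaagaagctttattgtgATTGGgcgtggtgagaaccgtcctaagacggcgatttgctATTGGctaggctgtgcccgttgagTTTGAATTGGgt

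In these windows CCAAT matched 6, 6, 5 and 4 times in that order, and the CHR nearest to the start lay 30, 23, 23 and 19 bases after the end of the closest CCAAT box before it. In Cdca8 the CHR runs into a further ATTGG, with which it shares a letter, and in Ube2c the run CCAATTGG is counted on each strand. In STAT3-/-PD-1-/- against WT CD4+ T cells the 29 members with both had a median log2 fold change of 0.83 and the other 13 with a window one of 0.80, and in CD8+ T cells the medians were 0.40 and 0.36.

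Per length of exon, the members ran from 9.01 RPKM for Anln to 234 RPKM for Mki67 over the 12 libraries, with a median of 47.7 RPKM. The 50 genes together took 0.676% to 1.58% of all counts of a library. Their summed level was 8520 and 6762 CPM in the WT CD4+ libraries, 10362 and 9155 CPM in STAT3-/- and 13384 and 12192 CPM in STAT3-/-PD-1-/- CD4+ libraries. In CD8+ T cells it was 11754 and 10263 CPM in WT, 15595 and 14390 CPM in STAT3-/- and 15122 and 13561 CPM in STAT3-/-PD-1-/- libraries. In CD4+ cells the 3 genotypes thus stood in an order without overlap, WT lowest and STAT3-/-PD-1-/- highest, while in CD8+ cells the STAT3-/- and STAT3-/-PD-1-/- libraries overlapped above WT. The heat map gives each member by library.

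**Figure D1:**
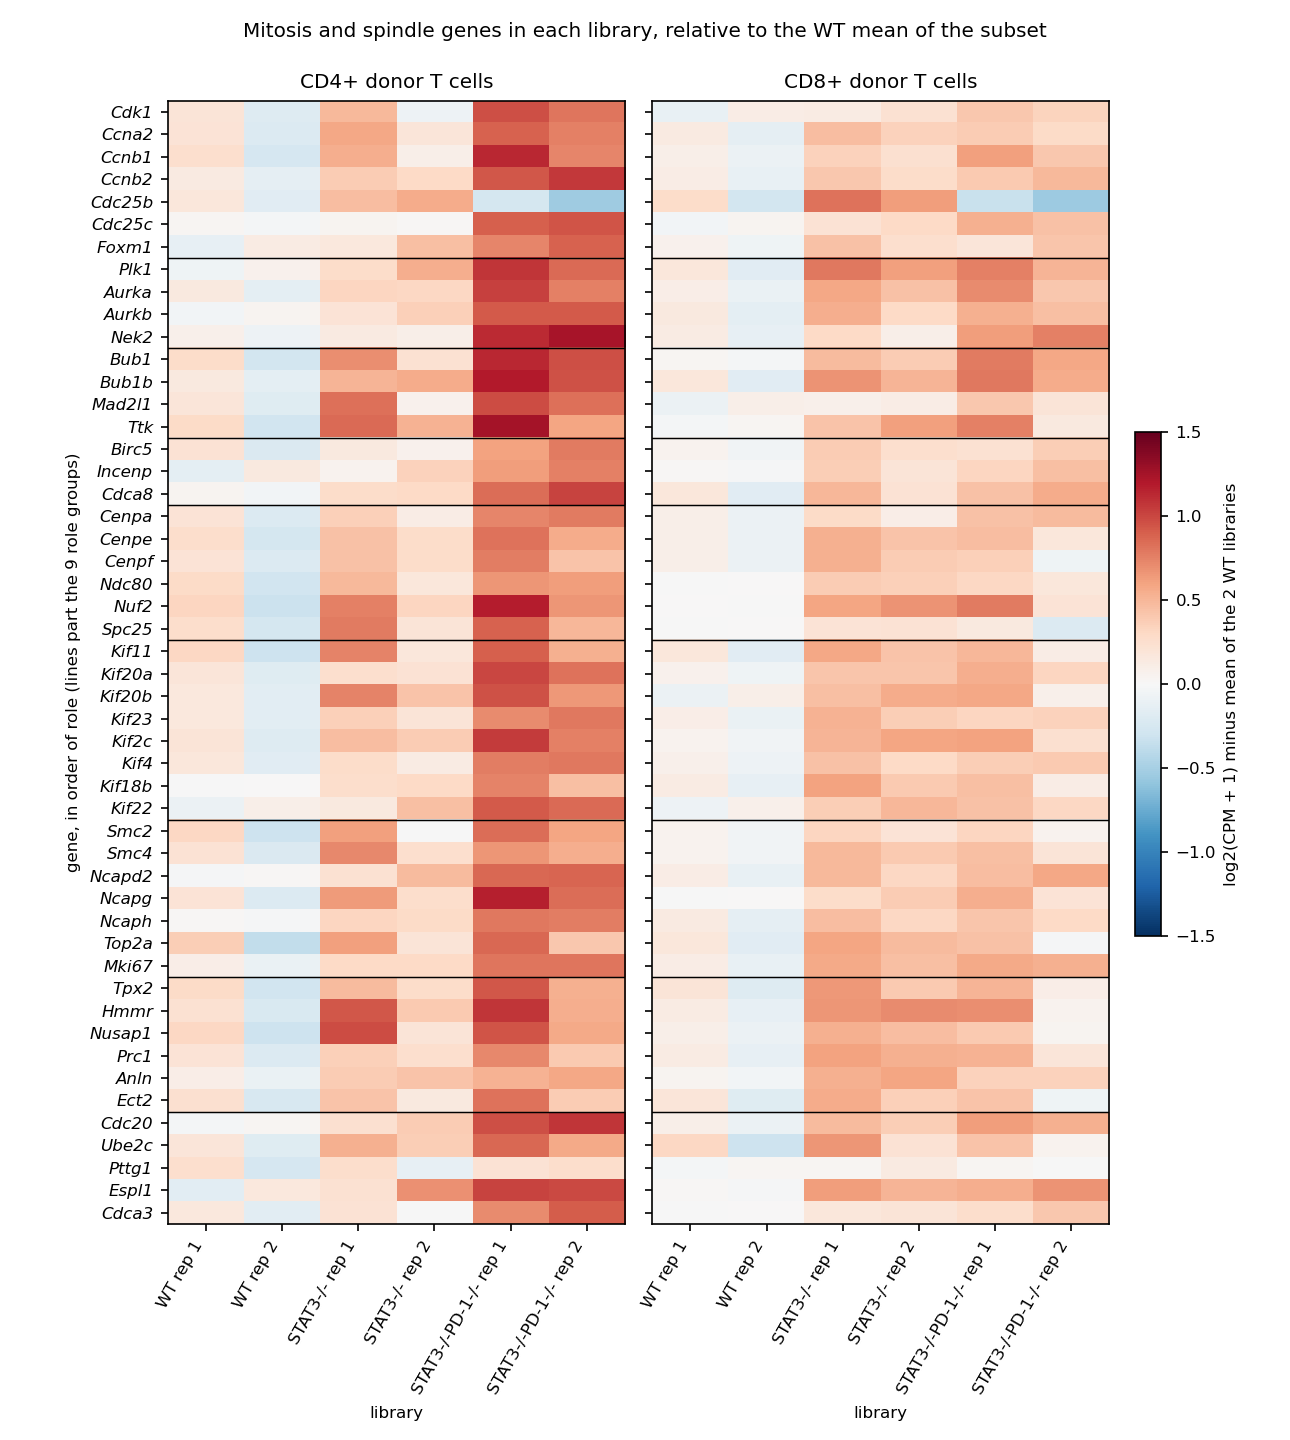
Heat map of the 50 mitosis and spindle genes (rows, in order of role, with lines between the 9 role groups) in the 6 CD4+ and 6 CD8+ libraries (columns), colored by log2(CPM + 1) minus the mean of the 2 WT libraries of the subset. The STAT3-/-PD-1-/- CD4+ columns are the reddest, with a median of 0.89 and 0.76 over the genes, and Cdc25b is the row that is blue in all 4 STAT3-/-PD-1-/- columns.

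Loss of STAT3 alone was examined first. In STAT3-/- CD4+ T cells none of the 50 members passed the threshold against WT, where 0.334% of the 11959 genes tested passed. All 50 fold changes were above 0, with a median of 0.34 (all genes 0.01), and 13 members had an unadjusted p under 0.05, as did 10.5% of all genes. DESeq2 also called 0 members (2.27% of all genes), and with the replicate number as a block 3 were called (2.53% of all genes). In 30 of the 50 both STAT3-/- libraries lay above both WT libraries, as did 18.8% of all genes. The smallest p belonged to Bub1b, a checkpoint kinase-like protein, at 0.54 ± 0.16 (adjusted p = 0.272), and the fold changes ran from 0.04 for Cdc25c to 0.69 for Ttk. Taken within replicate numbers, the medians were 0.27 for replicate 1 and 0.45 for replicate 2. Leaving out WT replicate 1 moved the median to 0.51 and leaving out WT replicate 2 to 0.22. Fewer members had an unadjusted p under 0.05 without WT replicate 2, STAT3-/- replicate 1 or either STAT3-/-PD-1-/- library. More did without WT replicate 1 or STAT3-/- replicate 2, and the share of all genes was not counted in these fits. The second WT CD4+ library had the lowest summed level of these genes of all 12.

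As compared with WT, CD4+ T cells that lacked both STAT3 and PD-1 had 32 members higher and none lower, where 7.21% of all genes tested were higher. The median fold change of the members was 0.83 (all genes -0.01), 49 of 50 were above 0, and in 48 of 50 both STAT3-/-PD-1-/- libraries lay above both WT libraries, against 29.6% of all genes. Nek2, a centrosome kinase, rose the most, by 1.21 ± 0.14 (SE, adjusted p = 0.00471). The one gene below 0 was Cdc25b, a phosphatase that activates CDK1 ahead of mitosis, at -0.38 ± 0.17 (adjusted p = 0.185). Within replicate numbers the medians were 0.77 and 0.88. The count rests on both double-knockout libraries: few or no members were called without either of them, and fewer without either WT library. The number called over all genes fell in each of these fits too. Medians were 0.79 and 0.88 without STAT3-/-PD-1-/- replicates 1 and 2, and 0.98 and 0.68 without WT replicates 1 and 2.

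As compared with STAT3-/- CD4+ T cells, STAT3-/-PD-1-/- CD4+ T cells had 9 members higher and 1 lower, where 11.1% of all genes changed in either direction. The 9 were Ccnb2, Cdc25c, Aurkb, Nek2, Cdca8, Kif20a, Mki67, Cdc20 and Cdca3, and the one that fell was Cdc25b. The median was 0.50, 49 of 50 members were above 0, and in 35 of them both STAT3-/-PD-1-/- libraries lay above both STAT3-/- libraries (28.5% of all genes). Within replicate numbers the medians were 0.46 and 0.41. None of these calls was left without either STAT3-/-PD-1-/- library, and fewer members were called without either STAT3-/- library. The number called over all genes fell in each of these fits too. The medians of the members were then 0.41 to 0.53. With the replicate number as a block 30 members were higher and 1 lower, where 26% of all genes changed.

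In CD8+ T cells, STAT3-/- cells again had no member past the threshold as compared with WT, where 0.0583% of the 12002 genes tested passed. All 50 fold changes were above 0 with a median of 0.43 (all genes -0.01), and 37 members had an unadjusted p under 0.05, as did 11% of all genes. Fewer members reached that p without either WT or either STAT3-/- library, and fewest without WT replicate 2 or STAT3-/- replicate 1. The share of all genes was not counted in these fits. DESeq2 called 8 members higher and 1.82% of all genes in either direction. In 47 of 50 members both STAT3-/- libraries lay above both WT libraries, against 22.5% of all genes, and the medians within replicate numbers were 0.40 and 0.46. Mki67, the gene of the Ki-67 antigen that coats mitotic chromosomes, had the smallest p, at 0.51 ± 0.10 (adjusted p = 0.213). The largest fold change was that of Plk1, at 0.70 ± 0.16 (adjusted p = 0.252), and the smallest that of Pttg1, at 0.08 ± 0.12.

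STAT3-/-PD-1-/- CD8+ T cells had 15 members higher and none lower than WT, where 9.01% of all genes were higher. The median was 0.37 (near 0 over all genes), 48 of 50 were above 0, and 36 had both libraries above both WT libraries (29.9% of all genes). The smallest p was that of Bub1, a checkpoint kinase of the kinetochore, which rose by 0.69 ± 0.12 (SE, adjusted p = 0.0117). Those below 0 were Cdc25b at -0.45 ± 0.18 and Spc25 at -0.01 ± 0.14. All 15 were also among the 32 that rose in CD4+ cells (46.9% of those 32). The CD4+ and CD8+ cells came from the same livers, and the overlap over all genes was not counted. Within replicate numbers the medians were 0.35 and 0.37. Fewer members were called higher without any 1 of the CD8+ libraries, and the number called over all genes fell in each of these fits too. Medians were 0.30 and 0.44 without STAT3-/-PD-1-/- replicates 1 and 2, and 0.46 and 0.33 without WT replicates 1 and 2. Scaling by total counts or DESeq2 gave 26 and 24 members higher. Of 12002 genes 1458 and 1366 were then higher, and 18.7% and 22.7% changed in either direction. The median stayed between 0.30 and 0.46 throughout.

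As compared with STAT3-/- CD8+ T cells, STAT3-/-PD-1-/- CD8+ T cells had 1 member higher, Nek2, and 1 lower, Cdc25b, where 16.8% of all genes changed. The other members lay on both sides of 0, 21 above and 29 below in all, with a median of -0.04. In 9 members both STAT3-/-PD-1-/- libraries lay above both STAT3-/- libraries (31.6% of all genes) and in 10 both lay below (also 31.6% of all genes). The median was near 0 under every scaling and its sign depended on it (0.04 by total counts). It was 0.01 without STAT3-/- replicate 1, and -0.11 and 0.04 without STAT3-/-PD-1-/- replicates 1 and 2. The medians within replicate numbers were -0.03 and -0.10. Neither call held without either STAT3-/-PD-1-/- library, and the Nek2 call did not hold without either STAT3-/- library or WT replicate 2. The number called over all genes fell in each of these fits too.

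**Figure D2:**
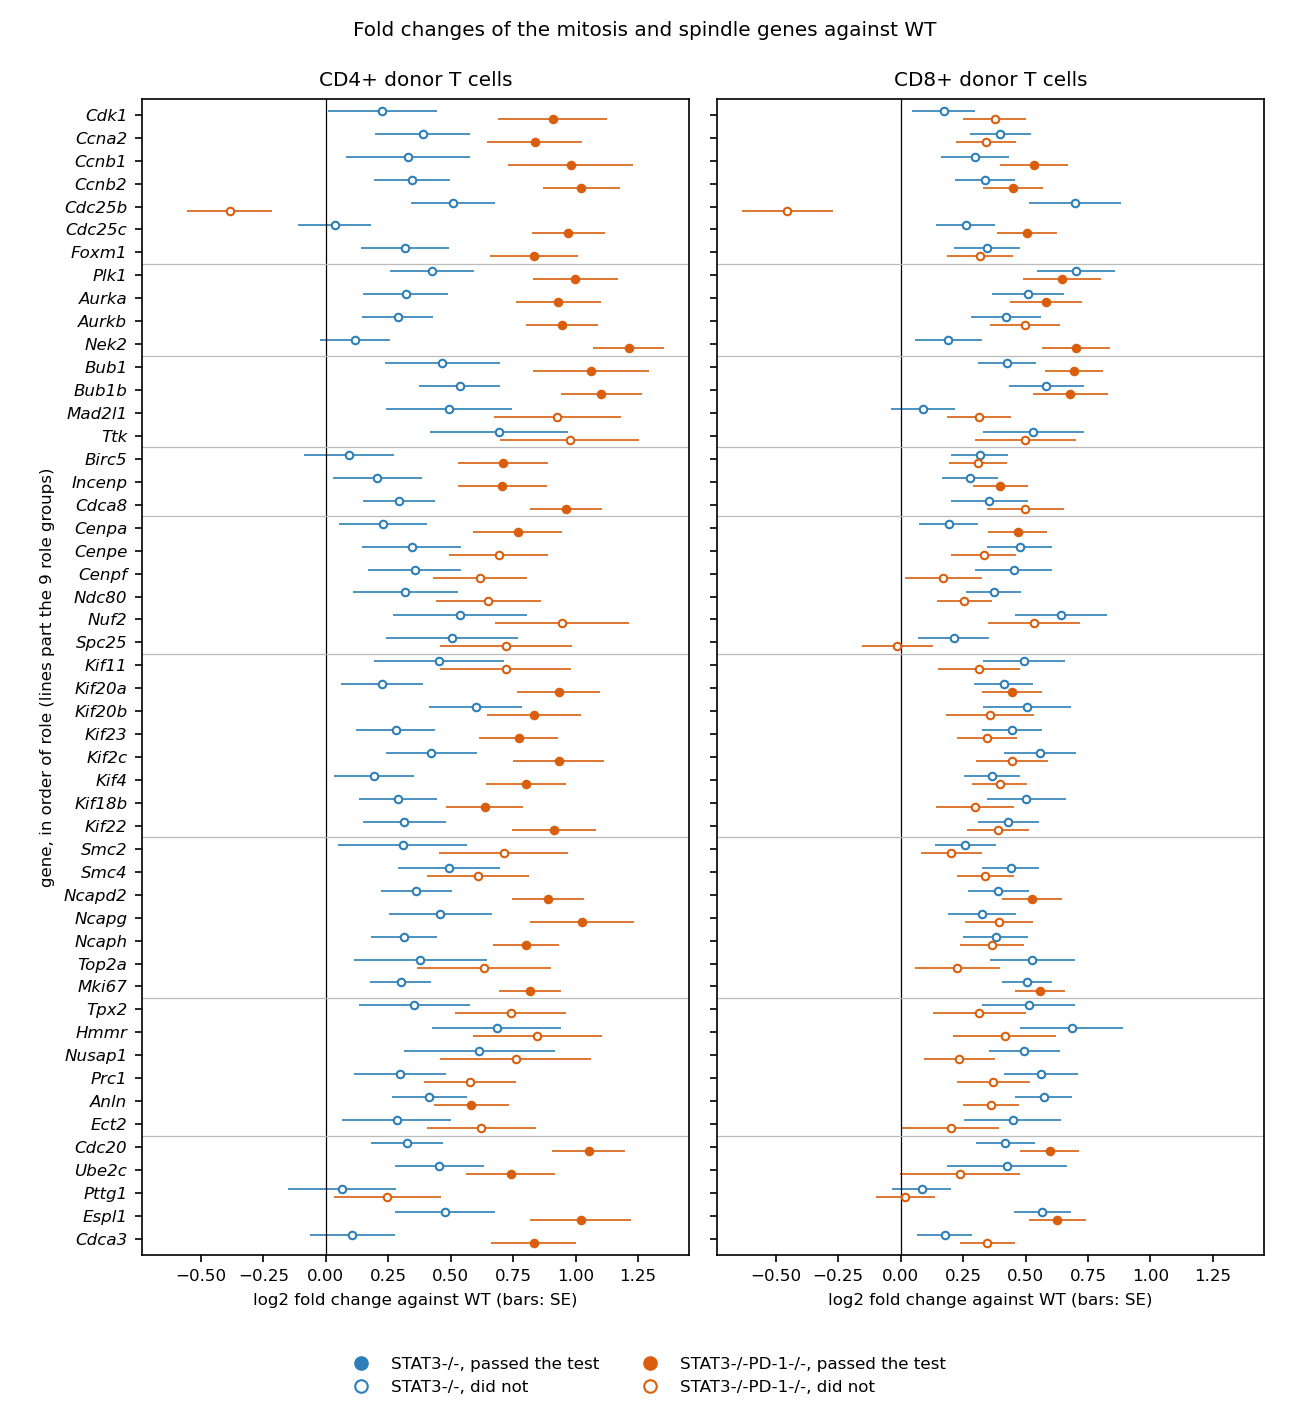
Log2 fold change against WT (x axis, with SE bars) of each of the 50 genes (y axis, in order of role) in STAT3-/- (blue) and STAT3-/-PD-1-/- (orange) CD4+ (left) and CD8+ (right) T cells, filled where the adjusted p was under 0.05. No blue point is filled, 32 orange points are filled on the left and 15 on the right, and the orange points of Cdc25b stand left of 0 in both panels.

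The difference between the subsets was tested in a fit of all 12 libraries. For STAT3-/-PD-1-/- against WT, the log2 fold change in CD8+ minus that in CD4+ cells was below 0 for all 50 members, with a median of -0.42. None passed the threshold, which 0.00811% of the 12334 genes did, and 11 had an unadjusted p under 0.05, as did 4.43% of all genes. DESeq2 called 0 members and 0.608% of all genes. Without 1 library, these 11 were fewest without CD8+ WT replicate 1 and most without CD4+ WT replicate 1. The share of all genes was not counted in these fits. For STAT3-/-PD-1-/- against STAT3-/- the median difference was -0.49, all 50 were below 0, and none passed, as 0% of all genes did (edgeR called 0 of 12334). Here 20 members had an unadjusted p under 0.05 (3.59% of all genes), and fewer did without CD8+ STAT3-/- replicate 1. DESeq2 called 0 members and 0.17% of all genes. Without CD4+ WT replicate 1 or 2 the first of these medians was -0.63 and -0.25. Over STAT3-/- cells 49 of 50 members were above 0 in CD4+ and 29 were below 0 in CD8+ cells. Both held for 28, the fewest these counts allow, and the share of all genes was not counted. For STAT3-/- against WT the median difference was 0.08, no member passed and none had an unadjusted p under 0.05 (0% of all genes passed). DESeq2 called 0 members and 0.0405% of all genes. The median difference was -0.10 and 0.22 without CD4+ WT replicate 1 and 2. The smallest p among the members was that of Cdc25c in the second of these, at -0.68 ± 0.15 (adjusted p = 0.544).

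Levels in CD8+ T cells were set beside those in CD4+ T cells of the same livers, in a fit without the pairing. In WT cells 23 members were higher in CD8+ cells and none lower, where 4.91% of all genes were higher, with a median of 0.60. In STAT3-/- cells 25 were higher and none lower (4.81% of all genes), with a median of 0.65. Both lists held 21 of the members (91.3% and 84% of them), and the overlap over all genes was not counted. In STAT3-/-PD-1-/- cells no member passed the threshold, where 4.14% of all genes changed, and DESeq2 called 0 members (6.15% of all genes). The median was 0.16, with 1 member at an unadjusted p under 0.05 (14.7% of all genes). This median was 0.25 and 0.11 without CD4+ and 0.08 and 0.26 without CD8+ STAT3-/-PD-1-/- replicates 1 and 2. With each pool of livers as a block the counts were 48, 47 and 2, where 24.3%, 24.9% and 14.4% of all genes changed, with nearly the same medians (0.60, 0.66 and 0.16). The WT count fell without CD4+ WT replicate 2, CD8+ WT replicate 1 or CD8+ WT replicate 2, with medians of 0.42, 0.50 and 0.64. The STAT3-/- count fell without CD8+ STAT3-/- replicate 1 or CD4+ STAT3-/- replicate 2, with medians of 0.60 and 0.58. The number called over all genes fell in each of these fits too. To a lesser degree the WT count also fell without CD4+ WT replicate 1 (median 0.78). So did the STAT3-/- count without CD4+ STAT3-/- replicate 1 (0.73) or CD8+ STAT3-/- replicate 2 (0.70). Leaving out a library of another group lowered the counts in some fits too. Nek2 had the smallest p in WT cells (0.80 ± 0.13, adjusted p = 0.00406) and in STAT3-/-PD-1-/- cells (0.30 ± 0.13, adjusted p = 0.326), and Cdc25c in STAT3-/- cells (0.83 ± 0.11, adjusted p = 0.0014).

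The role groups are described next, from entry into mitosis to its end. Their counts stand beside the 7.21% (CD4+) and 9.01% (CD8+) of all genes that were higher in STAT3-/-PD-1-/- than in WT cells, and the 28.7% and 34% with an unadjusted p under 0.05. The groups hold 3 to 8 genes, so that a count of 1 does not set a group apart from these shares, and low counts depended on the test. With the replicate number as a block all members but Cdc25b and 1 of the 5 anaphase and ubiquitin genes were called higher in CD4+ cells (26% of all genes changed), and in CD8+ cells the counts were then 5 of 7 for cyclins and CDK1 activation, 4 of 4 for the kinases, 4 of 8 for kinesins and 4 of 7 for condensin and chromosome structure (24.7% of all genes changed). The plot of group medians by library gives the 9 groups side by side.

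**Figure D3:**
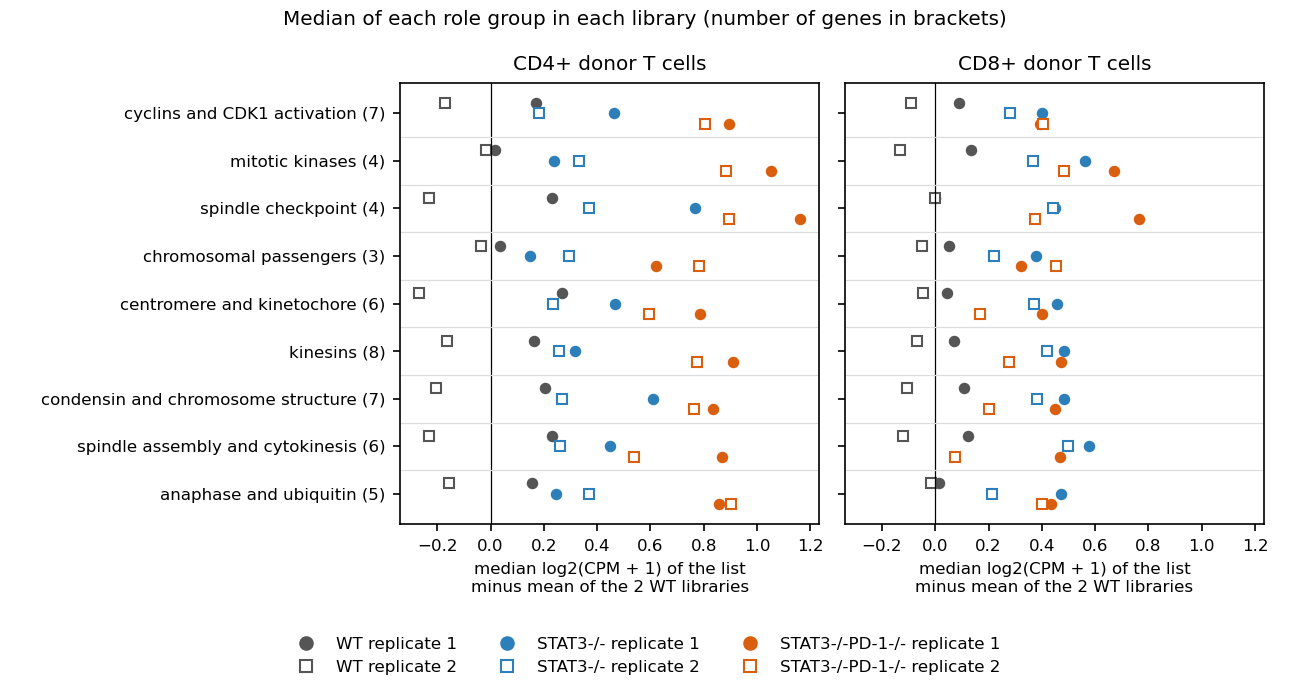
Median over the genes of each role group (y axis, number of genes in brackets) of log2(CPM + 1) minus the mean of the 2 WT libraries of the subset (x axis), with 1 point a library, colored by genotype, filled for replicate 1 and open for replicate 2. In CD4+ cells both orange points of all 9 groups lie right of both gray ones, whereas in CD8+ cells the orange and blue points of 8 groups overlap and those of spindle assembly and cytokinesis have orange to the left.

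Cyclins and CDK1 activation were led by Ccnb2 and Ccna2, which encode cyclins B2 and A2. Ccnb2 was at 125 and 103 CPM in the WT, 148 and 141 CPM in the STAT3-/- and 218 and 239 CPM in the STAT3-/-PD-1-/- libraries of CD4+ cells. In CD8+ cells Ccnb2 was at 205 and 176 CPM in the WT, 251 and 231 CPM in the STAT3-/- and 249.7 and 267 CPM in the STAT3-/-PD-1-/- libraries. The 3 genotypes did not overlap in CD4+ cells, and in CD8+ cells WT alone stood apart. Ccnb2 rose by 1.02 ± 0.15 in STAT3-/-PD-1-/- against WT CD4+ cells (adjusted p = 0.00875), by 0.68 ± 0.15 against STAT3-/- CD4+ cells (adjusted p = 0.0345) and by 0.45 ± 0.12 against WT CD8+ cells (adjusted p = 0.0422), the last of which was lost under 7 of 14 alternatives (adjusted p up to 0.241). Its differences between subsets had the smallest p of all members for STAT3-/-PD-1-/- against WT, at -0.56 ± 0.19 (adjusted p = 0.682). Ccna2 was at 285 and 215 CPM in the WT, 372 and 281 CPM in the STAT3-/- and 459 and 419.7 CPM in the STAT3-/-PD-1-/- libraries of CD4+ cells. In CD8+ cells Ccna2 was at 421 and 347 CPM in the WT, 528 and 487 CPM in the STAT3-/- and 498 and 468 CPM in the STAT3-/-PD-1-/- libraries. It rose in STAT3-/-PD-1-/- against WT CD4+ cells (0.84 ± 0.19, adjusted p = 0.0304) and did not pass in CD8+ cells (0.34 ± 0.12, adjusted p = 0.0933).

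Of the other 5 genes of the group, Cdk1, the kinase of mitotic entry, Ccnb1 (cyclin B1), Foxm1, the transcription factor of late cell cycle genes, and Cdc25c, a phosphatase that removes inhibitory phosphates from CDK1, also rose in STAT3-/-PD-1-/- against WT CD4+ cells, by 0.83 (Foxm1) to 0.98 (Ccnb1), so that 6 of 7 rose (7.21% of all genes). Cdc25c was at 26.5 and 25.5 CPM in the WT, 26.7 and 26.4 CPM in the STAT3-/- and 49.2 and 51.1 CPM in the STAT3-/-PD-1-/- libraries of CD4+ cells. In CD8+ cells Cdc25c was at 38 and 40.5 CPM in the WT, 45.8 and 48.3 CPM in the STAT3-/- and 57.1 and 53.7 CPM in the STAT3-/-PD-1-/- libraries. It had the smallest fold change of all members between STAT3-/- and WT CD4+ cells (0.04 ± 0.15) and after Nek2 the largest between STAT3-/-PD-1-/- and STAT3-/- CD4+ cells (0.94 ± 0.15, adjusted p = 0.0129). In CD8+ cells 3 of the 7 rose (Ccnb1, Ccnb2 and Cdc25c), where 9.01% of all genes did.

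Cdc25b went against the others. It was at 293 and 231 CPM in the WT, 359 and 384 CPM in the STAT3-/- and 216 and 179 CPM in the STAT3-/-PD-1-/- libraries of CD4+ cells. In CD8+ cells it was at 327 and 224 CPM in the WT, 476 and 419 CPM in the STAT3-/- and 215 and 185 CPM in the STAT3-/-PD-1-/- libraries. In both subsets both STAT3-/- libraries lay above, and both STAT3-/-PD-1-/- libraries below, the WT libraries. Cdc25b fell by 0.89 ± 0.17 in STAT3-/-PD-1-/- against STAT3-/- CD4+ cells (adjusted p = 0.0227) and fell by 1.15 ± 0.18 in CD8+ cells (adjusted p = 0.0112), whereas its differences from WT of 0.51 ± 0.17 and 0.70 ± 0.18 in STAT3-/- cells did not pass (adjusted p = 0.321 and 0.285; DESeq2 called the latter higher).

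All 4 mitotic kinases rose in STAT3-/-PD-1-/- against WT CD4+ cells, by 0.93 (Aurka) to 1.21 (Nek2), and all but Aurkb in CD8+ cells. Plk1, the polo-like kinase of spindle and centrosome, was at 51 and 56.2 CPM in the WT, 65.1 and 78.3 CPM in the STAT3-/- and 114 and 97.3 CPM in the STAT3-/-PD-1-/- libraries of CD4+ cells. In CD8+ cells Plk1 was at 87.7 and 68.8 CPM in the WT, 135 and 119.6 CPM in the STAT3-/- and 132 and 111 CPM in the STAT3-/-PD-1-/- libraries. Its fold changes against WT were 1.00 ± 0.17 (adjusted p = 0.0118) in STAT3-/-PD-1-/- CD4+ and 0.65 ± 0.16 (adjusted p = 0.0322) in CD8+ cells. Of the 51-base stretches of Plk1 transcripts, 6.24% are also found in a pseudogene, Plk-ps1. Aurkb, the kinase of the chromosomal passenger complex, was at 70.2 and 74.4 CPM in the WT, 83.2 and 92.8 CPM in the STAT3-/- and 137 and 137 CPM in the STAT3-/-PD-1-/- libraries of CD4+ cells. In CD8+ cells Aurkb was at 127 and 104 CPM in the WT, 168 and 141 CPM in the STAT3-/- and 166 and 157 CPM in the STAT3-/-PD-1-/- libraries. It rose in CD4+ cells (0.95 ± 0.14, adjusted p = 0.00885), and its CD8+ value of 0.50 ± 0.14 lay just short of the threshold (adjusted p = 0.0514). Nek2 was at 76 and 68.3 CPM in the WT, 79.1 and 76.8 CPM in the STAT3-/- and 157 and 172 CPM in the STAT3-/-PD-1-/- libraries of CD4+ cells. In CD8+ cells Nek2 was at 136 and 115 CPM in the WT, 154 and 133 CPM in the STAT3-/- and 194 and 211 CPM in the STAT3-/-PD-1-/- libraries. STAT3-/- and WT libraries of Nek2 lay close together in both subsets (0.12 ± 0.14 and 0.19 ± 0.13), and the STAT3-/-PD-1-/- libraries stood apart above them, with rises over STAT3-/- of 1.10 ± 0.14 in CD4+ (adjusted p = 0.00865) and 0.51 ± 0.13 in CD8+ cells (adjusted p = 0.0424).

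**Figure D4:**
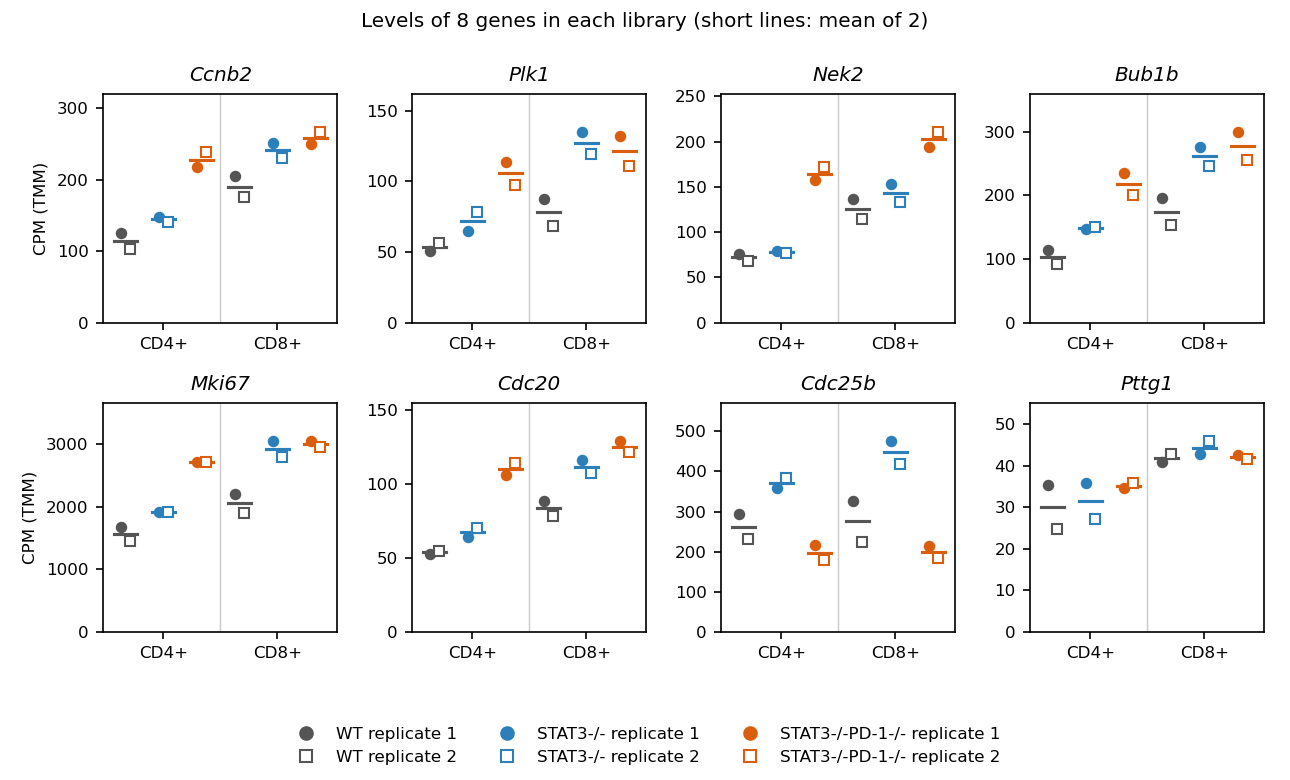
Level of 8 genes (CPM after TMM scaling, y axis from 0) in each of the 12 libraries, colored by genotype, with CD4+ on the left and CD8+ on the right of each panel, replicate 1 filled and replicate 2 open, and a short line at the mean of 2. Nek2 is near WT in STAT3-/- cells and high in STAT3-/-PD-1-/- cells, Cdc25b is highest in STAT3-/- and lowest in STAT3-/-PD-1-/- cells, and Pttg1 differs little.

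The spindle checkpoint genes Bub1 and Bub1b rose in STAT3-/-PD-1-/- against WT in both subsets, and Mad2l1 and Ttk did not pass in either. However, DESeq2 and the replicate block each called all 4 higher in CD4+ cells, where 18.1% and 26% of all genes changed. Mad2l1, whose product binds and holds the anaphase activator CDC20, was at 98.5 and 76.4 CPM in the WT, 155 and 90.6 CPM in the STAT3-/- and 172 and 155 CPM in the STAT3-/-PD-1-/- libraries of CD4+ cells. In CD8+ cells Mad2l1 was at 141 and 160.2 CPM in the WT, 158 and 163 CPM in the STAT3-/- and 199.8 and 172 CPM in the STAT3-/-PD-1-/- libraries. The 2 STAT3-/- CD4+ libraries of Mad2l1 were far apart, and its fold change of 0.93 ± 0.25 in STAT3-/-PD-1-/- against WT CD4+ cells had an adjusted p of 0.0537 and passed under 9 of 14 alternatives (0.00489 to 0.215). Bub1b was at 114 and 92.2 CPM in the WT, 147 and 151 CPM in the STAT3-/- and 235 and 200.1 CPM in the STAT3-/-PD-1-/- libraries of CD4+ cells. In CD8+ cells Bub1b was at 195 and 153 CPM in the WT, 277 and 247 CPM in the STAT3-/- and 299.8 and 255 CPM in the STAT3-/-PD-1-/- libraries. Both knockout groups lay above WT without overlap in each subset, with rises of 1.10 ± 0.16 (adjusted p = 0.00834) and 0.68 ± 0.15 (adjusted p = 0.0238) in STAT3-/-PD-1-/- CD4+ and CD8+ cells. Bub1 was at 78.5 and 52.8 CPM in the WT, 105 and 75.3 CPM in the STAT3-/- and 142 and 127 CPM in the STAT3-/-PD-1-/- libraries of CD4+ cells. In CD8+ cells Bub1 was at 107 and 102 CPM in the WT, 145 and 136 CPM in the STAT3-/- and 179 and 156 CPM in the STAT3-/-PD-1-/- libraries. Its genotypes did not overlap in CD8+ cells, and in CD4+ cells the lower STAT3-/- library lay below the higher WT library. Ttk, the checkpoint kinase MPS1, had 0.98 ± 0.28 and 0.50 ± 0.20 with wider errors than the other 3.

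Of the chromosomal passengers, which correct faulty attachments and take part in cytokinesis, Incenp, Cdca8 (borealin) and Birc5 (survivin) all rose in STAT3-/-PD-1-/- against WT CD4+ cells, and Incenp in CD8+ cells. Incenp was at 178 and 218 CPM in the WT, 205 and 250.4 CPM in the STAT3-/- and 304 and 332 CPM in the STAT3-/-PD-1-/- libraries of CD4+ cells. In CD8+ cells Incenp was at 289.9 and 285 CPM in the WT, 370.5 and 328 CPM in the STAT3-/- and 359 and 394 CPM in the STAT3-/-PD-1-/- libraries. The rises were 0.71 ± 0.18 (adjusted p = 0.0417) and 0.40 ± 0.11 (adjusted p = 0.0487), the second of which did not hold with all genes kept, with only the 4 libraries compared, with all 12 in 1 fit or without any 1 of the 6 CD8+ libraries (adjusted p up to 0.204). Cdca8, one of the printed promoters, was at 73.7 and 69.9 CPM in the WT, 87.1 and 88.3 CPM in the STAT3-/- and 129 and 146 CPM in the STAT3-/-PD-1-/- libraries of CD4+ cells. In CD8+ cells Cdca8 was at 127 and 100.3 CPM in the WT, 159 and 132 CPM in the STAT3-/- and 153 and 166 CPM in the STAT3-/-PD-1-/- libraries. STAT3-/-PD-1-/- CD4+ libraries of Cdca8 stood well above all 4 others (0.96 ± 0.14 against WT and 0.67 ± 0.14 against STAT3-/-, adjusted p = 0.00858 and 0.0299). Birc5 rose by 0.71 ± 0.18 in the same comparison with WT (adjusted p = 0.0429).

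Of the centromere and kinetochore genes 1 of 6 rose in each subset in STAT3-/-PD-1-/- against WT, and all 6 had an unadjusted p under 0.05 in CD4+ cells (28.7% of all genes). In CD4+ cells the count was 5 by DESeq2 (18.1% of all genes changed) and 6 with the replicate block (26%). In CD8+ cells it was 2 and 1, where 22.7% and 24.7% of all genes changed. The gene was Cenpa, the centromeric histone H3 variant, in both. Cenpa was at 153 and 115 CPM in the WT, 170.0 and 143 CPM in the STAT3-/- and 221 and 228 CPM in the STAT3-/-PD-1-/- libraries of CD4+ cells. In CD8+ cells Cenpa was at 193 and 172 CPM in the WT, 222 and 194 CPM in the STAT3-/- and 248 and 253 CPM in the STAT3-/-PD-1-/- libraries. It rose by 0.77 ± 0.18 in CD4+ (adjusted p = 0.0318) and by 0.47 ± 0.12 in CD8+ cells (adjusted p = 0.0361), the second of which was lost under 7 of 14 alternatives (adjusted p up to 0.21). Ndc80, of the complex that grips spindle microtubules, was at 76 and 51 CPM in the WT, 87.9 and 69.9 CPM in the STAT3-/- and 99.4 and 96.6 CPM in the STAT3-/-PD-1-/- libraries of CD4+ cells. In CD8+ cells Ndc80 was at 89.4 and 89.8 CPM in the WT, 117 and 115 CPM in the STAT3-/- and 112 and 101 CPM in the STAT3-/-PD-1-/- libraries. Its replicates differed most in WT CD4+ cells, and its fold changes of 0.65 ± 0.21 and 0.26 ± 0.11 did not pass (adjusted p = 0.0867 and 0.153). Nuf2 and Spc25, of the same complex, Cenpe, a kinetochore motor, and Cenpf had 0.62 (Cenpf) to 0.95 (Nuf2) in CD4+ and -0.01 (Spc25) to 0.53 (Nuf2) in CD8+ cells, none past the threshold.

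Kinesins, the motors of the spindle, rose in 7 of 8 cases in STAT3-/-PD-1-/- against WT CD4+ cells (7.21% of all genes) and in 1 of 8, Kif20a, in CD8+ cells, near the 9.01% of all genes. The 7 were Kif20a and Kif23, which act at the midzone, Kif20b, Kif2c, which takes microtubules apart, Kif4, Kif18b and Kif22, by 0.64 (Kif18b) to 0.93 (Kif2c and Kif20a). Kif11, which pushes the spindle poles apart, was at 319 and 207 CPM in the WT, 430.1 and 289 CPM in the STAT3-/- and 479 and 374 CPM in the STAT3-/-PD-1-/- libraries of CD4+ cells. In CD8+ cells Kif11 was at 421 and 334 CPM in the WT, 559.8 and 504 CPM in the STAT3-/- and 529 and 404 CPM in the STAT3-/-PD-1-/- libraries. Its replicate 2 was the lower library in every group, and its 0.72 ± 0.26 in CD4+ cells did not pass (adjusted p = 0.118). Kif22, a chromosome arm motor, was at 77.5 and 87.6 CPM in the WT, 91.2 and 113 CPM in the STAT3-/- and 157 and 149 CPM in the STAT3-/-PD-1-/- libraries of CD4+ cells. In CD8+ cells Kif22 was at 127 and 142 CPM in the WT, 173 and 190.4 CPM in the STAT3-/- and 183 and 168 CPM in the STAT3-/-PD-1-/- libraries. The genotypes of Kif22 did not overlap in CD4+ cells, where it rose by 0.91 ± 0.17 (adjusted p = 0.0154), whereas STAT3-/- and STAT3-/-PD-1-/- CD8+ libraries did (0.39 ± 0.12 against WT, adjusted p = 0.0693).

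Condensin and chromosome structure held Mki67, the most abundant member per length of exon. In STAT3-/-PD-1-/- against WT CD4+ cells Mki67 and the condensin I subunits Ncapd2, Ncapg and Ncaph rose, while the core subunits Smc2 and Smc4 and Top2a did not pass (0.71 ± 0.26, 0.61 ± 0.20 and 0.63 ± 0.27). Mki67 was at 1676 and 1448 CPM in the WT, 1912 and 1919 CPM in the STAT3-/- and 2712 and 2711 CPM in the STAT3-/-PD-1-/- libraries of CD4+ cells. In CD8+ cells Mki67 was at 2203 and 1902 CPM in the WT, 3047 and 2788 CPM in the STAT3-/- and 3048 and 2957 CPM in the STAT3-/-PD-1-/- libraries. The 3 genotypes of CD4+ cells did not overlap for Mki67, and the rises were 0.82 ± 0.12 (adjusted p = 0.00875) in CD4+ and 0.56 ± 0.10 (adjusted p = 0.0136) in CD8+ cells. Top2a, the topoisomerase that untangles sister chromatids, was at 949.9 and 571 CPM in the WT, 1128 and 842 CPM in the STAT3-/- and 1343 and 979 CPM in the STAT3-/-PD-1-/- libraries of CD4+ cells. In CD8+ cells Top2a was at 1221 and 967 CPM in the WT, 1644 and 1513 CPM in the STAT3-/- and 1474 and 1071 CPM in the STAT3-/-PD-1-/- libraries. Replicate 2 of Top2a was the lower library in all 6 groups, both STAT3-/- libraries lay above the other 4 in CD8+ cells, and its fold change in CD8+ cells was 0.23 ± 0.17 (adjusted p = 0.393). Ncapd2 rose in CD8+ cells as well (0.53 ± 0.12, adjusted p = 0.027), so that 4 of 7 rose in CD4+ (7.21% of all genes) and 2 of 7 in CD8+ cells (9.01% of all genes).

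Of the spindle assembly and cytokinesis genes, in STAT3-/-PD-1-/- against WT, 1 of 6 rose in CD4+ cells (Anln, anillin of the cleavage furrow, 0.58 ± 0.15, adjusted p = 0.0443) and none in CD8+ cells by edgeR, where 2 had an unadjusted p under 0.05, a share near the 34% of all genes. In CD4+ cells the count was 4 by DESeq2 (18.1% of all genes changed) and 6 with the replicate block (26%). In CD8+ cells it was 1 by each. There 1366 and 1517 of 12002 genes were higher, and 22.7% and 24.7% changed in either direction. Nusap1, which binds spindle microtubules near chromatin, was at 138 and 89 CPM in the WT, 220.4 and 127 CPM in the STAT3-/- and 214 and 165 CPM in the STAT3-/-PD-1-/- libraries of CD4+ cells. In CD8+ cells Nusap1 was at 188 and 168 CPM in the WT, 257 and 246 CPM in the STAT3-/- and 234 and 182 CPM in the STAT3-/-PD-1-/- libraries. Tpx2, which activates Aurora A on the spindle, was at 188 and 126 CPM in the WT, 214 and 186 CPM in the STAT3-/- and 293 and 223 CPM in the STAT3-/-PD-1-/- libraries of CD4+ cells. In CD8+ cells Tpx2 was at 273 and 207 CPM in the WT, 373 and 313 CPM in the STAT3-/- and 339 and 254 CPM in the STAT3-/-PD-1-/- libraries. For both, replicate 2 was the lower library in every group, the first STAT3-/- CD4+ library of Nusap1 lay above both STAT3-/-PD-1-/- libraries, and neither passed in CD4+ cells (0.76 ± 0.30 and 0.74 ± 0.22, adjusted p = 0.146 and 0.0692), which under alternatives passed in 3 and 8 of 14. Hmmr, Prc1 and Ect2, a spindle-pole protein, a midzone crosslinker and an activator of RhoA in cytokinesis, had 0.85, 0.58 and 0.62 in CD4+ and 0.42, 0.37 and 0.20 in CD8+ cells. All 6 of the group were below 0 in STAT3-/-PD-1-/- against STAT3-/- CD8+ cells, with a median of -0.23 and none past the threshold.

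Among the genes of anaphase and ubiquitin, Cdc20, the activator of the anaphase-promoting complex, and Espl1 (separase) rose in STAT3-/-PD-1-/- against WT in both subsets, and Ube2c and Cdca3 in CD4+ cells. Cdc20 rose by 1.05 ± 0.15 (adjusted p = 0.00699) and by 0.60 ± 0.12 (adjusted p = 0.0178), and 9.96% of its 51-base stretches are shared with a pseudogene, Gm7856. Ube2c, the ubiquitin-conjugating enzyme of that complex, was at 79.1 and 61.5 CPM in the WT, 102 and 90.4 CPM in the STAT3-/- and 127 and 104 CPM in the STAT3-/-PD-1-/- libraries of CD4+ cells. In CD8+ cells Ube2c was at 129 and 84.3 CPM in the WT, 166 and 121 CPM in the STAT3-/- and 141 and 109 CPM in the STAT3-/-PD-1-/- libraries. Its replicates were far apart in CD8+ cells, where the value was 0.24 ± 0.24 (adjusted p = 0.536), and in CD4+ cells it rose by 0.74 ± 0.18 (adjusted p = 0.0361), which did not hold under 5 of 14 alternatives, namely all 12 libraries in 1 fit and leaving out any 1 of the 4 libraries compared (adjusted p up to 0.2). Cdca3, which takes part in mitotic entry, was at 114 and 91.5 CPM in the WT, 119 and 102 CPM in the STAT3-/- and 168 and 192 CPM in the STAT3-/-PD-1-/- libraries of CD4+ cells. In CD8+ cells Cdca3 was at 159 and 161 CPM in the WT, 179 and 183 CPM in the STAT3-/- and 192 and 211 CPM in the STAT3-/-PD-1-/- libraries. The STAT3-/- libraries of Cdca3 overlapped WT in CD4+ cells and the STAT3-/-PD-1-/- libraries did not, with rises of 0.83 ± 0.17 over WT (adjusted p = 0.0218) and 0.73 ± 0.17 over STAT3-/- (adjusted p = 0.0383). Pttg1, securin, had the fold change nearest to 0 of all members in STAT3-/-PD-1-/- against WT CD4+ and in STAT3-/- against WT CD8+ cells, with 24.9 to 46 CPM over all 12 libraries and fold changes against WT of 0.25 ± 0.21 in CD4+ and 0.02 ± 0.12 in CD8+ STAT3-/-PD-1-/- cells.

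Over the 14 alternatives, those of these genes that were called in STAT3-/-PD-1-/- against WT CD4+ cells and are given by library passed in 13 (Nek2), 12 (Bub1b, Cdca8 and Mki67), 11 (Aurkb, Bub1, Ccna2, Ccnb2, Cdc25c, Cdca3, Cenpa, Kif22 and Plk1), 10 (Incenp) and 9 (Ube2c), and the calls lost were mostly those without 1 library. In CD8+ cells they passed in 11 (Bub1, Bub1b, Mki67, Nek2 and Plk1), 8 (Cdc25c), 7 (Ccnb2 and Cenpa) and 5 (Incenp). Of those not called, Kif11 and Ndc80 passed in 3 and Top2a in 1 in CD4+ cells, and Aurkb in 7, Cdca8 in 5, Cdca3 in 3 and Ccna2 and Kif22 in 2 in CD8+ cells. Over STAT3-/- cells, Cdc25c and Nek2 passed in 12, Cdc25b and Cdca3 in 11 and Aurkb, Ccnb2, Cdca8 and Mki67 in 10 in CD4+ cells, and Cdc25b in 12 and Nek2 in 9 in CD8+ cells. Among those not called over STAT3-/- CD4+ cells, Bub1b and Kif22 passed in 4, Cenpa and Plk1 in 3 and Incenp in 2. Bub1, Ccna2 and Mad2l1 passed there in 1.

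Replicate 2 had lower levels of the members than replicate 1 in each of the 6 groups, by medians of 0.12 (STAT3-/- CD8+) to 0.36 (WT CD4+) on the log2 scale, where the medians over all genes ran from -0.02 to 0.01. Between 9 and 15 of the 50 members were higher in replicate 2 of a group. The sample titles place the libraries in 2 number series, one for each replicate number, and the cause of this difference was not tested. The differences between STAT3-/- and WT cells, by comparison, had medians of 0.34 and 0.43.

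Some reads cannot be given to 1 gene with certainty. Of the 51-base stretches of Ccnb1 transcripts in GENCODE vM21, 23.2% are also found in transcripts of other genes, mostly the pseudogene Ccnb1-ps, and the share was under 10% for each of the other 49. Exons of the opposite strand overlapped over 5% of the exon bases of Kif20a (29.3%, Cdc23), Ube2c (22.8%, Tnnc2), Kif4 (15.1%, Pdzd11), Ncapg (13.4%, Lcorl), Cdc25c (12.7%, Gm3550), Ccna2 (12.5%, Exosc9), Prc1 (11.1%, Rccd1), Plk1 (7.09%, Gm44985) and Nek2 (6.6%, Gm38037). The study's supplemental methods name a stranded library kit (KAPA Stranded mRNA-Seq), whereas the sample labels name a SMARTER kit. Whether the counting used strand is not given in the sources used here.

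Related genes outside the 50 were read from lists by function, and their counts stand beside the 7.21% (CD4+) and 9.01% (CD8+) of all genes that were higher in STAT3-/-PD-1-/- than in WT cells. Other kinetochore and centromere genes rose in 12 of 28 cases in STAT3-/-PD-1-/- against WT in CD4+ and in 12 of 28 in CD8+ cells, with medians of 0.82 and 0.46. Cenpn and Cenpk had the smallest p in CD4+ (1.02 ± 0.17 and 1.70 ± 0.28) and Cenph and Ska3 in CD8+ cells (0.73 ± 0.13 and 0.70 ± 0.12). Other checkpoint genes rose in 4 of 7 cases in CD4+ and 2 of 7 in CD8+ cells, led by Zwilch (1.10 ± 0.18 and 0.78 ± 0.15), which brings checkpoint proteins to the kinetochore, with Mad2l1bp, a protein that opposes MAD2, at -0.03 ± 0.15 and -0.15 ± 0.12 and not past the threshold. Other mitotic kinesins and condensin II rose in 5 of 8 and 3 of 8 cases, led by Kif15 (1.10 ± 0.15 and 0.65 ± 0.12). Of 15 genes of the anaphase-promoting complex, its activator Fzr1 among them, 1 rose in CD4+ cells, Anapc5, which is a share near that of all genes, and 3 in CD8+ cells, Anapc1, Anapc5 and Cdc27, with medians of 0.27 and 0.27. Of 15 cohesin genes 4 rose in CD4+ cells, namely Sgo1, Sgo2a, Cdca5 and Esco2, and 2 in CD8+ cells, Sgo1 and Sgo2a, the latter count near the share of all genes. Shugoshins, encoded by Sgo1 and Sgo2a, guard centromeric cohesion, and Mau2, Nipbl and Esco1, which load or acetylate cohesin, were below 0 in both subsets without passing the threshold.

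Of 9 genes that hold back or release CDK1, 4 rose in STAT3-/-PD-1-/- against WT CD4+ cells, namely Cdc25a (0.87 ± 0.15), Mastl (0.90 ± 0.17), Wee1 and Pkmyt1, and the first 3 rose in CD8+ cells (all genes 7.21% and 9.01%). WEE1 and PKMYT1 put the inhibitory phosphates on CDK1, CDC25A removes them, and MASTL holds back the phosphatase that opposes CDK1. Cdc25a thus rose in both subsets, whereas its relative Cdc25b was below WT in both without passing the threshold. In CD8+ cells Cdc25b did pass as lower than WT under 2 of the 14 alternatives, which were the replicate block and leaving out WT replicate 2 (adjusted p of 0.0405 to 0.547 over the 14, by edgeR or DESeq2), and in CD4+ cells under 0 of 14 (0.0731 to 0.579).

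S phase genes, of DNA replication and nucleotide supply, rose in 20 of 24 cases in STAT3-/-PD-1-/- against WT CD4+ cells (7.21% of all genes), with a median of 1.00, and in 18 of 24 in CD8+ cells (9.01% of all genes), with a median of 0.65. Against STAT3-/- cells 17 of 24 rose in CD4+ (median 0.82, with 6.05% of all genes higher) and 7 of 24 in CD8+ cells (median 0.42, with 8.76% of all genes higher), where the mitotic members had 9 of 50 (0.50) and 1 of 50 (-0.04). Uhrf1 and Chaf1a had the smallest p in CD4+ (1.21 ± 0.14 and 1.14 ± 0.14) and Gins1 and Ccne1 in CD8+ cells (0.97 ± 0.14 and 0.88 ± 0.13). The difference between the lists was not tested.

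**Figure D5:**
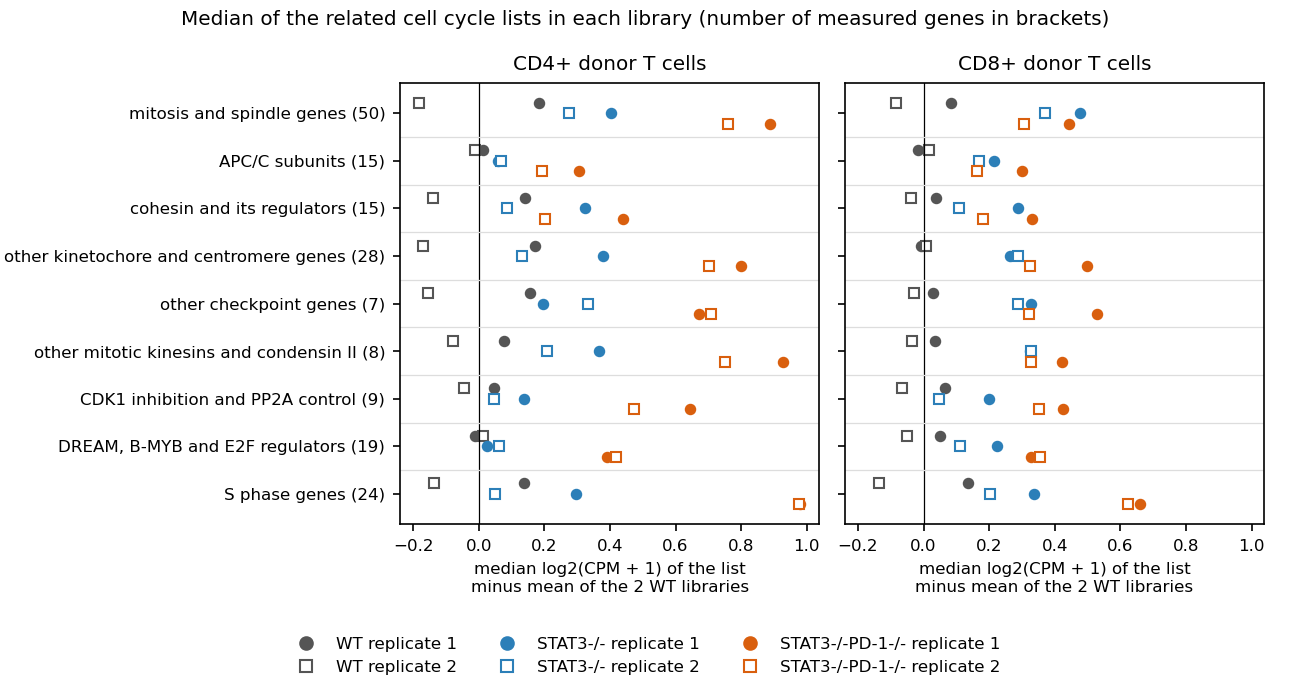
Median over each list (y axis, number of genes in brackets) of log2(CPM + 1) minus the mean of the 2 WT libraries of the subset (x axis), with 1 point a library, colored by genotype, filled for replicate 1 and open for replicate 2. In CD8+ cells the orange points of the S phase genes lie right of the blue ones, whereas those of the mitosis and spindle genes lie among them.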

How the data were processed

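RNA-Seq libraries (12, 6 groups of 2) were read as 51-base single ends. Per the study's methods, STAR was used by the authors for alignment to mm10, and HTSeq-count for reads per RefSeq gene. The deposited table holds raw counts per gene for 25078 genes. Exon lengths were taken from the count table. The deposited RPKM table, which the authors scaled by exon length and library size, supplied an alternative level.

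Members and related lists were chosen with earlier results of these data known. Counts were tested with edgeR 4.0.16 (quasi-likelihood, TMM, filterByExpr with a minimum count of 10, Benjamini-Hochberg over all genes tested), in 1 fit of 6 libraries per subset and, between subsets, 1 fit of 12. The script was tested on simulated data. Alternatives were DESeq2 1.42.0, other scalings, filters, samples and blocks, and leaving out each library. A fit with livers as a block was the paired alternative to the unpaired tests between subsets. Deviations of CD4+ and CD8+ libraries of the same livers from their group means correlated over 12334 genes. The r was 0.642 for WT, 0.638 for STAT3-/- and 0.792 for STAT3-/-PD-1-/- cells. Between WT and STAT3-/- libraries of the same replicate number and different livers, r was 0.761 in CD4+ and 0.766 in CD8+ cells. What part shared livers had in these correlations was not tested. The comparison between subsets of STAT3-/-PD-1-/- against STAT3-/- was added after values were seen. Per-library values are given for the 2 members of each role group with the highest RPKM and the member with the smallest p of each comparison. The level of 1 marker gene is not reported here.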

Additional observations from a re-analysis of the deposited data

How the results depend on the processing

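The counts of called members moved with the processing, and no named gene that was called changed direction. DESeq2 called 21 members in STAT3-/-PD-1-/- against STAT3-/- CD4+ cells (10 in edgeR), 8 in STAT3-/- against WT CD8+ cells (0) and 24 in STAT3-/-PD-1-/- against WT CD8+ cells (15). Over all genes, DESeq2 called 17.6%, 1.82% and 22.7% in these comparisons, against 11.1%, 0.0583% and 17.2% by edgeR. Scaling by total counts gave 17 and 26 members for the first and the last of these (12% and 18.7% of all genes). Keeping all genes with at least 1 count gave 1 in STAT3-/- against WT CD8+ cells (0.391% of all genes). All 12 libraries in 1 fit gave 24 in STAT3-/-PD-1-/- against STAT3-/- CD4+ cells (18.6% of all genes).

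The genotype groups share only a replicate number (r from 0.0447 to 0.766 between groups of different livers and the same subset), and with it as a replicate block the members called were 3 in STAT3-/- against WT (2.53% of all genes), 48 in STAT3-/-PD-1-/- against WT and 31 in STAT3-/-PD-1-/- against STAT3-/- CD4+ cells (26% of all genes in each), 27 in STAT3-/-PD-1-/- against WT CD8+ cells (26 higher, and Cdc25b lower, with 24.7% of all genes), and 46 (WT) and 43 (STAT3-/-) in CD8+ against CD4+ cells (16.3% and 15.5% of all genes). With the pairing by livers as the block these last were 48 and 47, and 2 in STAT3-/-PD-1-/- cells. The blocks moved no other count of called members by over 1.5 times. The share of all genes at an unadjusted p under 0.05, to set beside the member counts below, was not counted with the blocks. In STAT3-/- against WT CD4+ cells calls over all genes rose from 40 to 303 with the replicate block. Members at an unadjusted p under 0.05 went from 13 to 37 in STAT3-/- against WT CD4+ cells, from 3 to 7 in STAT3-/-PD-1-/- against STAT3-/- CD8+ cells, from 1 to 4 (10 by livers) in CD8+ against CD4+ STAT3-/-PD-1-/- cells, and, for the differences between subsets, from 11 to 30 (33 by livers) in STAT3-/-PD-1-/- against WT, from 20 to 36 (38 by livers) in STAT3-/-PD-1-/- against STAT3-/- and from 0 to 0 (1 by livers) in STAT3-/- against WT.

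Without 1 library at a time, the members called ran from 0 to 42 in STAT3-/-PD-1-/- against WT CD4+ cells, 0 to 10 against STAT3-/- CD4+ cells, 0 to 9 against WT CD8+ cells, 0 to 2 against STAT3-/- CD8+ cells, and, for CD8+ against CD4+ cells, 3 to 25 in WT and 5 to 32 in STAT3-/- cells. The median fold changes then ran from 0.22 to 0.51 (STAT3-/- against WT) and 0.68 to 0.98 (STAT3-/-PD-1-/- against WT) in CD4+ cells, 0.42 to 0.78 for WT CD8+ against CD4+ cells, and -0.10 to 0.22 and -0.63 to -0.25 for the differences between subsets of STAT3-/- and STAT3-/-PD-1-/- against WT. The lone library left was taken to vary like the others. The number called over all genes moved in these fits too. For each comparison with a range of members called, its lowest value lay below that of the fit with all libraries. Without either STAT3-/- CD4+ library the number over all genes rose in STAT3-/-PD-1-/- against WT CD4+ cells, as the number of members called did.

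Over all genes, calls in STAT3-/- against WT went from 40 to 271 (DESeq2) and 303 (replicate block) in CD4+ cells, and from 7 to 218 (DESeq2) and 66 (all genes with at least 1 count) in CD8+ cells. For 75 of the main values, 859 results under alternatives stayed on their side of the threshold, 71 passed it and 120 no longer did. This count does not take in every comparison of each named gene. The cause of these changes was not tested.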

Other observations

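Regulators of the cell cycle genes (19 genes of the DREAM complex, B-MYB and the E2F family) rose in 6 cases in STAT3-/-PD-1-/- against WT CD4+ cells and in 7 in CD8+ cells (7.21% and 9.01% of all genes), with medians of 0.43 and 0.34. E2f8, a repressor made in S phase, had 1.18 ± 0.17 and 0.79 ± 0.13 (adjusted p = 0.00784 and 0.0116 by edgeR), and Mybl2, which encodes B-MYB, had 1.17 ± 0.21 and 0.93 ± 0.18 (adjusted p = 0.0139 and 0.0182 by edgeR). E2f7, Rbl1 and Tfdp1 also rose in both subsets, E2f1 in CD4+ cells, and Tfdp2 and E2f3 in CD8+ cells. Rbl2, the pocket protein p130 of resting cells, was at -0.59 ± 0.16 in CD4+ cells (adjusted p = 0.0518 by edgeR).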
